A study of Staurois parvus with 11 samples.

Results

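The HOXB genes, one of the 4 clusters of HOX homeobox genes of land vertebrates, were followed across the neuromuscular tissues of the Bornean rock frog (Staurois parvus). The members were every entry of the deposited count tables whose annotation starts with HOXB and a number. There were 7 such entries among 23777, annotated HOXB2, hoxb3a, HOXB4, HOXB6, hoxb7-a, Hoxb8 and Hoxb9, and each was a single transcript. Names are spelled as in the annotation, which drew on a protein database of many species. Across the HOXA, HOXB, HOXC and HOXD names the tables held 33 entries.

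HOX proteins are transcription factors that give cells their position along the head-to-tail axis of the embryo. The genes of a cluster lie in a row, and those toward the 3′ end are switched on earlier and closer to the head than those toward the 5′ end, an order known as colinearity. In the nervous system of vertebrates, forebrain and midbrain lie in front of all HOX domains, while the hindbrain and spinal cord express successive sets of HOX genes that help to set the fates of motor neurons and interneurons.

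RNA sequencing was carried out on spinal cord (n = 4), thigh muscle, called leg muscle here (n = 5), and whole brain (n = 2). All tissue came from adult males of a captive colony at the Vienna Zoo. The labels do not name the frogs or say which tissues came from the same frog, so p-values measure the spread between these libraries. In such whole-tissue RNA, fewer cells of a type and less RNA per cell cannot be told apart.

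Reads counted in transcripts numbered 12339432 to 18607450 per spinal cord library, 31242008 to 56082082 per leg muscle library and 15728514 and 22686688 in the brain libraries. They were 25.3 to 28.1%, 41.1 to 44.5% and 24.7 to 26.5% of the counted reads of these tissues. Marker genes fitted the tissue labels. The summed level of 9 entries for neuronal markers was 5834 to 8781 CPM (counts per 1000000) in spinal cord, 1.22 to 12.9 CPM in leg muscle and 1964 to 2256 CPM in brain. That of 67 entries for sarcomere and other muscle genes was 61.9 to 1819 CPM in spinal cord, 269861 to 655949 CPM in leg muscle and 54.9 to 223 CPM in brain. In leg muscle CKM and ATP2A1, which are not sarcomere genes, averaged 287852 and 147010 CPM of it. The names of the deposited files put 2 spinal cords (libraries 1 and 2) on sequencing lane 2 and the remaining 9 libraries on lane 1.

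All 7 HOXB genes had their highest level in the spinal cord, and in each of them every spinal cord library stood above every library of the other tissues. Over all 13923 transcripts tested, 12.6% had every spinal cord library above every brain library, and 25.4% had every spinal cord library above every leg muscle library, with 20.6% below. The 7 levels added up to 277, 372, 390 and 488 CPM in the spinal cord libraries, against 7.0, 6.49, 18.8, 6.48 and 6.78 CPM in leg muscle and 6.10 and 8.18 CPM in brain. All 7 members passed the filter on low counts. Hoxb8 and Hoxb9 did so through the spinal cord, since they were filtered out when leg muscle and brain were fitted alone, and the other 5 remained. Of those 5, HOXB4, HOXB6 and hoxb7-a had at most 5 reads in a brain library and remained through leg muscle. CPM here is scaled with TMM (trimmed mean of M values) normalization and not divided by transcript length, so levels are compared between tissues and not between genes. The strand setting of the counting is not stated, so reads of a gene and of any antisense transcript across it cannot be told apart.

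**Figure D1:**
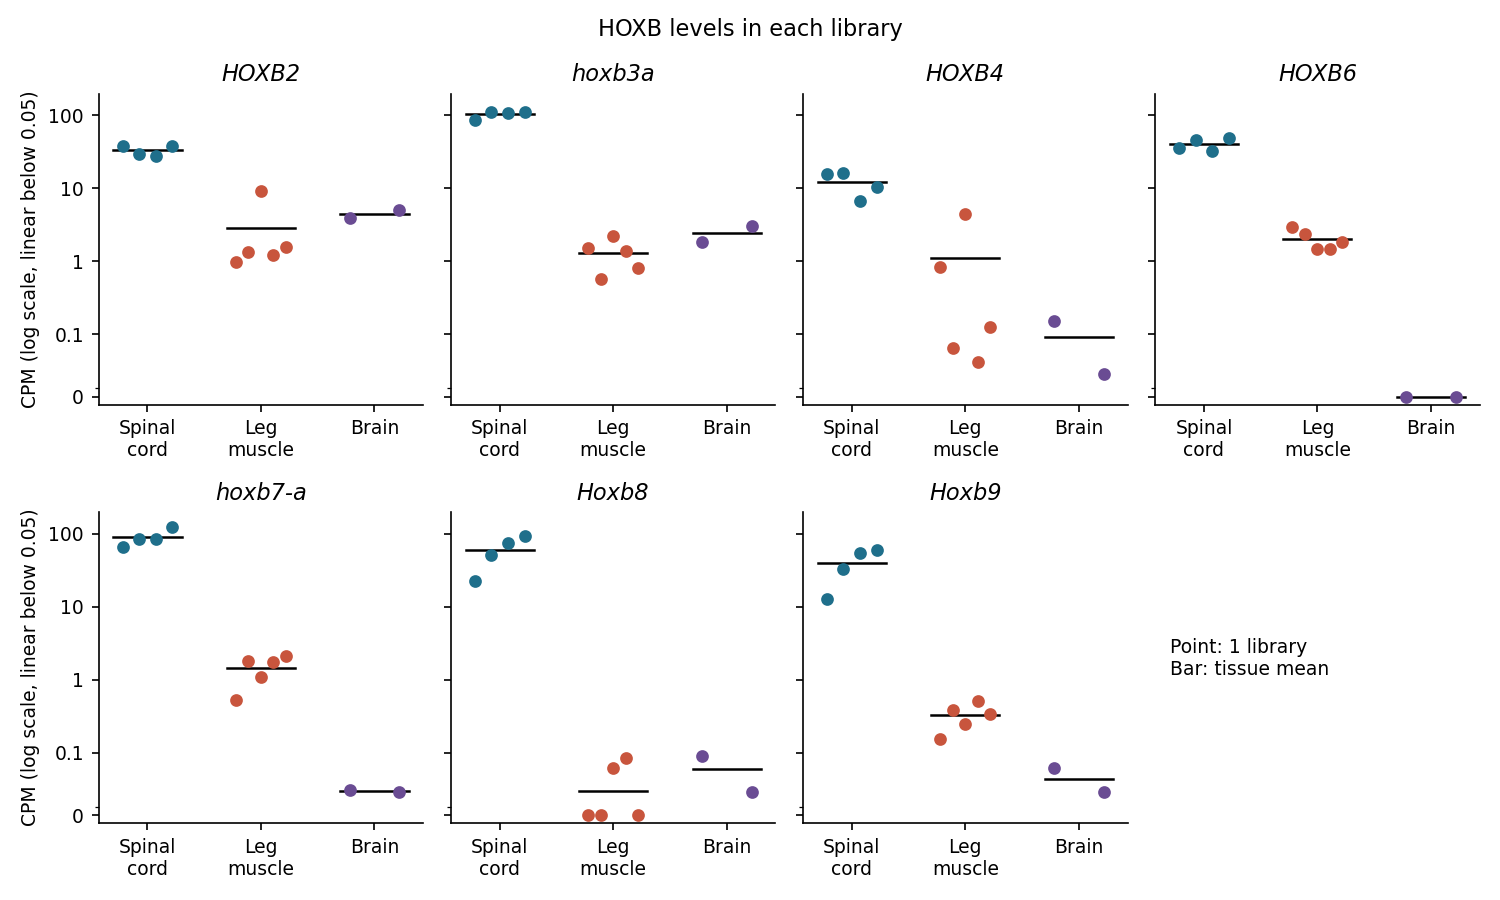
HOXB levels (CPM, log axis that is linear below 0.05) in each library of spinal cord, leg muscle and brain. Each point is 1 library and each bar the tissue mean. The 4 spinal cord libraries lie above all others for every gene, while HOXB6 has no read in either brain.

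HOXB2 and hoxb3a, genes of the anterior end of the cluster that pattern the hindbrain in mice, were each counted in both brains well above the limit of detection. HOXB2 had 37.8, 29.7, 27.8 and 37.7 CPM in spinal cord, against 0.989, 1.34, 9.33, 1.23 and 1.56 CPM in leg muscle and 3.92 and 5.04 CPM in brain. The brain counts behind it were 129 and 180 reads. Whole brain includes the hindbrain, and 5 entries for hindbrain markers summed to 2.33 to 14.0 CPM in spinal cord, 0 to 2.62 CPM in leg muscle and 27.0 to 32.1 CPM in brain. Leg muscle library 3 lay above both brains, and the other 4 leg muscle libraries lay below them. HOXB2 was higher in spinal cord than in leg muscle with a Log2FC of 3.53 ± 0.63 (SE) and an adjusted p of 0.000575 (edgeR's quasi-likelihood test with Benjamini-Hochberg adjustment over all transcripts tested, as for every adjusted p given here). Without leg muscle library 3 that Log2FC was 4.68 (adjusted p 3.8e-07). Over brain its Log2FC was 2.89 ± 0.88, with an adjusted p of 0.143.

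Whether HOXB2 was called over brain depended on leg muscle library 3 and on the method. In the edgeR fit the 3 tissues shared an estimate of the spread. Without leg muscle library 3 the Log2FC over brain was 2.89 ± 0.31, with an adjusted p of 0.000901 (edgeR). With that library kept, HOXB2 over brain passed with DESeq2 (adjusted p 0.00737) and with limma-voom (adjusted p 0.00269). HOXB2 over brain passed in 4 of the 23 alternatives tried. Over those that kept both brains, the adjusted p ranged from 0.000901 to 0.296 (both edgeR).

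The hoxb3a transcript had 87.2, 110.2, 109 and 113 CPM in spinal cord, against 1.52, 0.572, 2.19, 1.40 and 0.800 CPM in leg muscle and 1.85 and 3.03 CPM in brain. Spinal cord stood far from both other tissues, whereas leg muscle and brain overlapped. The Log2FC was 6.34 ± 0.39 over leg muscle (adjusted p 2.0e-07, edgeR) and 5.42 ± 0.56 over brain (adjusted p 0.000573, edgeR). Among the 4 spinal cords hoxb3a varied little. The SD of its log2 CPM was 0.17, and 92.0% of the transcripts tested had a larger one.

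HOXB4, which in mice acts at the border of hindbrain and spinal cord and in blood-forming cells, was present in spinal cord and close to 0 in most other libraries. It had 15.7, 16.5, 6.63 and 10.4 CPM in spinal cord, against 0.837, 0.0636, 4.39, 0.0423 and 0.126 CPM in leg muscle and 0.152 and 0.0280 CPM in brain. The leg muscle counts were 11, 1, 72, 1 and 3 reads and the brain counts 5 and 1. Leg muscle library 3 again held the highest leg muscle value, and leg muscle and brain overlapped.

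HOXB4 was higher in spinal cord than in leg muscle, with a Log2FC of 3.51 ± 1.06 and an adjusted p of 0.0149 (edgeR). Without leg muscle library 3 this Log2FC was 5.66 (adjusted p 0.000169), and without the spinal cords of lane 2 it was 2.88 (adjusted p 0.104). Over brain the Log2FC was 7.04 ± 1.94 with an adjusted p of 0.103, and without leg muscle library 3 it was 7.04 ± 1.21 with an adjusted p of 0.0123 (edgeR). Resting on 6 brain reads, the Log2FC over brain was 8.54 without brain library 1 and 6.29 without brain library 2. HOXB4 over brain passed in 5 of the 23 alternatives. Over those that kept both brains, the adjusted p ranged from 4.0e-05 (DESeq2) to 0.247 (edgeR).

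HOXB6 and hoxb7-a, of the middle of the cluster, take part in patterning the ribs and vertebrae of mice. Both were seen in spinal cord and, at low levels, in every leg muscle library, but hardly or not at all in brain. HOXB6 had 35.3, 46.7, 32.3 and 48.4 CPM in spinal cord, against 2.97, 2.35, 1.46, 1.48 and 1.81 CPM in leg muscle and 0 in both brains. The leg muscle values rest on 24 to 43 reads per library. No groups overlapped.

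The HOXB6 Log2FC of spinal cord over leg muscle was 4.34 ± 0.29 (adjusted p 6.2e-07, edgeR). Set against the 3 reads over both brains that a count of 0 allows, which is 0.0437 CPM, HOXB6 was at least 920-fold higher in spinal cord than in brain (adjusted p 4.8e-05, edgeR) and at least 44.0-fold higher in leg muscle than in brain (adjusted p 4.5e-06, edgeR). These bounds cover counting error only.

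The hoxb7-a transcript had 65.4, 84.5, 85.4 and 125 CPM in spinal cord, against 0.533, 1.78, 1.10, 1.74 and 2.15 CPM in leg muscle and 0.0304 and 0.0280 CPM in brain. The brain values are 1 read each, and none of the 3 tissues overlapped. Spinal cord exceeded leg muscle with a Log2FC of 5.92 ± 0.39 (adjusted p 3.0e-07, edgeR). With so few brain reads the ratio of pooled reads is given with its exact 95% counting interval. It was 3140 (869 to 25932) for spinal cord over brain (adjusted p 6.3e-05, edgeR) and 53.7 (14.6 to 448) for leg muscle over brain (adjusted p 6.2e-05, edgeR).

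Hoxb8 and Hoxb9 are the most posterior members found. In mice Hoxb8 acts in the dorsal horn of the spinal cord and in the control of grooming, and Hoxb9 takes part in patterning the thorax. Hoxb8 had 22.9, 52.0, 74.3 and 93.3 CPM in spinal cord. Outside the spinal cord it was at the limit of detection, with 0, 0, 1, 2 and 0 reads in the leg muscle libraries and 3 and 1 reads in the brains. The pooled ratio of spinal cord over leg muscle was 1958 (670 to 9496; adjusted p 3.1e-07, edgeR), and the Log2FC over brain was 9.90 ± 0.98 (adjusted p 0.000431, edgeR). On 4 brain reads, this Log2FC was 10.84 without brain library 1 and 9.29 without brain library 2. Leg muscle and brain, with 3 and 4 reads in all, could not be compared at this depth.

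Hoxb9 had 13, 32.9, 54.8 and 60.4 CPM in spinal cord, against 0.152, 0.382, 0.244, 0.508 and 0.337 CPM in leg muscle and 0.0607 and 0.0280 CPM in brain. It was thus seen in all 5 leg muscle libraries, with 2 to 12 reads, and in the brains with 2 and 1 reads, without overlap of the groups. The Log2FC of spinal cord over leg muscle was 6.89 ± 0.51 (adjusted p 7.1e-07, edgeR). The pooled ratio was 971 (332 to 4712) for spinal cord over brain (adjusted p 0.000359, edgeR) and 7.90 (2.47 to 40.3) for leg muscle over brain (adjusted p 0.0153, edgeR). The last of these calls needs the spinal cord in the fit, since without it Hoxb9 was filtered out, and it was lost without brain library 1 (adjusted p 0.0521) and without brain library 2 (adjusted p 0.108).

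Counted over the cluster, 5 of the 7 HOXB genes were called higher in spinal cord than in brain and none lower, where 0.84% of all transcripts tested were called higher. In spinal cord against leg muscle all 7 were called higher, with 29.9% of all transcripts tested called higher and 25.7% lower. Both counts include Hoxb8 and Hoxb9, which passed the filter on low counts only through the spinal cord, where they are high. In leg muscle against brain 3 of 7 were called higher (HOXB6, hoxb7-a and Hoxb9) and none lower, with 21.9% of all transcripts tested called higher and 28.7% lower. The same 3 were those whose leg muscle libraries all lay above both brains, as did those of 25.6% of all transcripts tested. None of the 3 passed the filter on low counts through brain. These 3 comparisons share their libraries and are not independent of each other.

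The median Log2FC of the 7 members was 9.69 in spinal cord over brain, and 9.85 with HOXB6 at its bound and hoxb7-a and Hoxb9 at their read ratios, against 0 over all transcripts tested. It was 5.92 in spinal cord over leg muscle, against 0.10 over all transcripts. In leg muscle over brain it was 2.80, or 3.25 over the 6 members left without Hoxb8 and with bounds and read ratios in place, against -0.11 over all transcripts. Within lane 1 alone, that is without spinal cord libraries 1 and 2, the members called numbered 5, 6 and 3 in these comparisons.

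**Figure D2:**
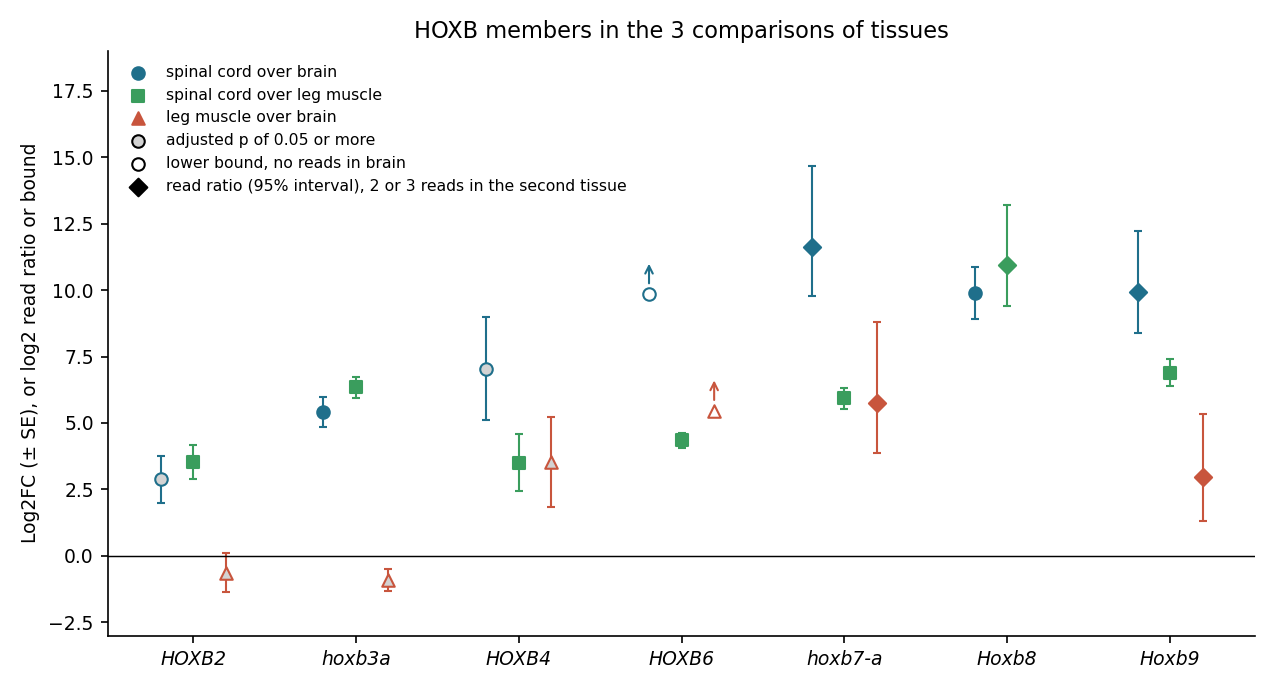
Differences of the 7 HOXB genes in spinal cord over brain, spinal cord over leg muscle and leg muscle over brain, on a log2 scale. Filled symbols are Log2FC with SE past an adjusted p of 0.05, grey ones did not pass, diamonds are read ratios with 95% counting intervals, open symbols with arrows are lower bounds, and Hoxb8 in leg muscle over brain is left out. HOXB2 and HOXB4 over brain are grey, and HOXB6, hoxb7-a and Hoxb9 are the members above 0 in leg muscle over brain that passed.

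The make-up of the HOXB reads differed between tissues. HOXB2, hoxb3a and HOXB4 together took 50.7% (95% exact binomial interval 49.6 to 51.9), 42.0% (40.9 to 43.0), 36.7% (35.9 to 37.5) and 33.0% (32.2 to 33.7) of the HOXB reads in spinal cord libraries 1 to 4. In leg muscle libraries 1 to 5 they took 47.8% (37.3 to 58.5), 30.4% (21.7 to 40.3), 84.7% (80.2 to 88.6), 41.2% (33.3 to 49.4) and 36.6% (29.2 to 44.6), and in the brains 97.0% (93.6 to 98.9) and 99.0% (97.0 to 99.8). The brain reads were thus nearly all from the anterior genes. In this summed share 4 of the 5 leg muscle libraries fell in or near the range of the spinal cords, and library 3 lay between these and the brains. Single genes still differed. In these 4 leg muscles Hoxb8 took 0 to 1.31% of the HOXB reads, against 8.27 to 19.1% in the spinal cords. HOXB6 took 22.9 to 42.4% in them, against 8.28 to 12.7% in the spinal cords. The shares are of raw reads with no correction for length and are read across libraries only. The totals behind them were 7246 to 15271 HOXB reads in spinal cord, 92 to 308 in leg muscle and 201 and 292 in brain.

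**Figure D3:**
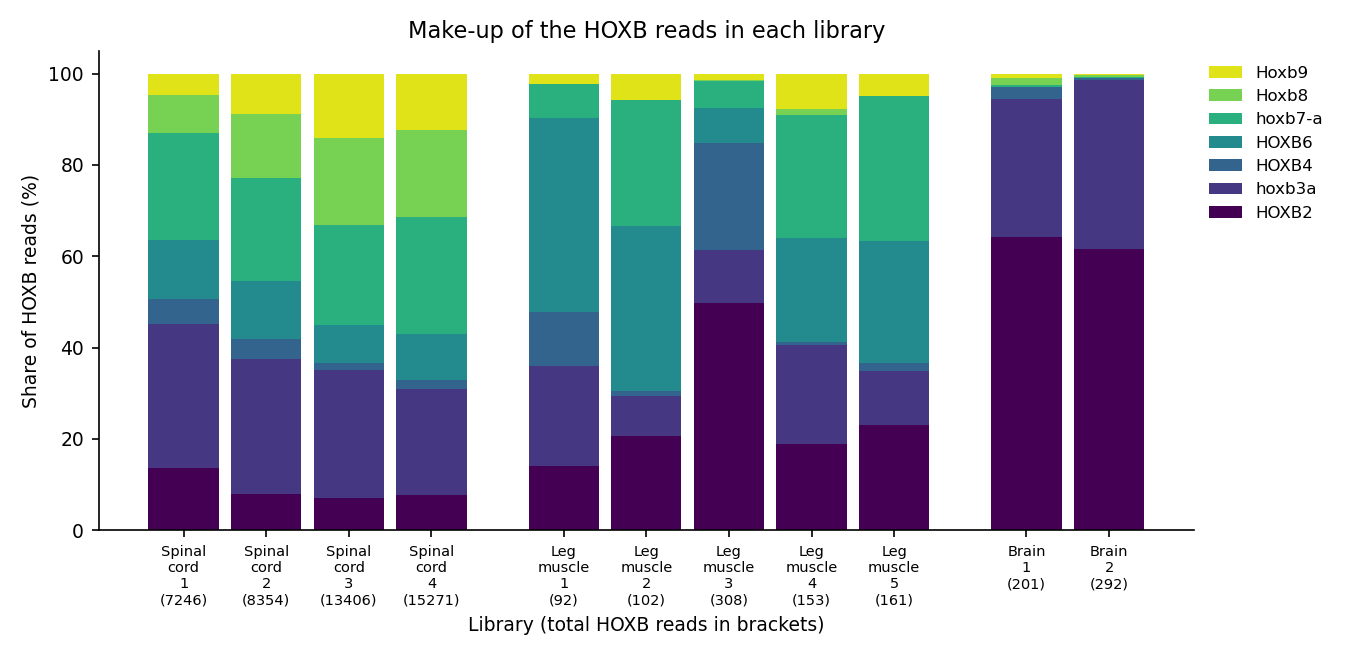
Share of each HOXB gene in the HOXB reads of a library (%, stacked bars, anterior genes at the bottom) for the spinal cord, leg muscle and brain libraries, with the total HOXB reads in brackets. HOXB2, hoxb3a and HOXB4 fill 97.0 and 99.0% of the bars of the brains, against 33.0 to 50.7% of those of the spinal cords.

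The spinal cords themselves differed most at the posterior end. The highest spinal cord level was 1.36 times the lowest for HOXB2, 1.29 for hoxb3a, 2.48 for HOXB4, 1.5 for HOXB6, 1.91 for hoxb7-a, 4.07 for Hoxb8 and 4.64 for Hoxb9. Spinal cord library 1 had the lowest level of hoxb3a, hoxb7-a, Hoxb8 and Hoxb9, whereas library 3 had the lowest of HOXB2, HOXB4 and HOXB6. Of all transcripts tested, 23.2% were lowest in library 1. The SD of log2 CPM over the 4 spinal cords was 0.89 for Hoxb8 and 1.01 for Hoxb9, compared with a median of 0.44 over all transcripts, and 19.2% and 15% of transcripts had a larger SD than these genes.

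HOXB4 and Hoxb9 differed in opposite directions between the spinal cords of lane 1 and lane 2. The reads of Hoxb9 divided by those of HOXB4 gave 0.83 (95% exact interval 0.716 to 0.960) in library 1, 2.00 (1.76 to 2.27) in library 2, 8.27 (7.20 to 9.53) in library 3 and 5.78 (5.13 to 6.52) in library 4, a ratio chosen after the values were seen. The libraries of lane 1 (3 and 4) had the higher ratios and those of lane 2 (1 and 2) the lower ones. The mean log2 CPM of lane 1 minus that of lane 2 was -0.05 for HOXB2, 0.17 for hoxb3a, -0.94 for HOXB4, -0.04 for HOXB6, 0.47 for hoxb7-a, 1.27 for Hoxb8 and 1.47 for Hoxb9, with a median of -0.04 over all transcripts. In hoxb7-a, Hoxb8 and Hoxb9 both lane 1 libraries stood above both lane 2 libraries, as in 15.8% of all transcripts tested, and in HOXB4 both stood below, as in 17.2%. With 2 libraries on each lane, lane and frog cannot be told apart, and no p is given.

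**Figure D4:**
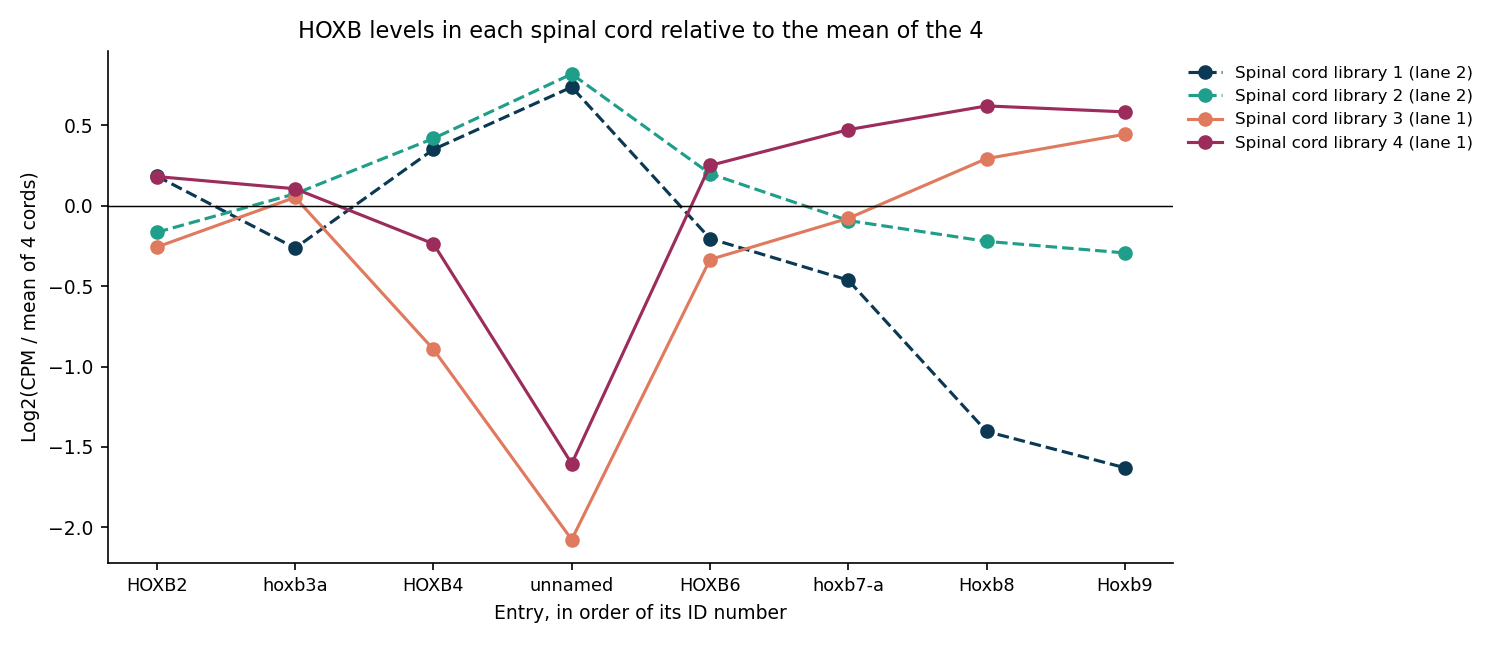
Level of each HOXB gene and of the unnamed transcript between HOXB4 and HOXB6 in each spinal cord, as log2 of its CPM over the mean of the 4 spinal cords, in the order of the ID numbers. Lines are libraries, dashed for lane 2 and solid for lane 1. Library 1 is lowest at Hoxb8 and Hoxb9, and both lane 1 libraries are lowest at HOXB4 and the unnamed transcript.

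The other HOX clusters also differed between these libraries. Of the 12 HOXA, HOXC and HOXD entries numbered 9 to 13, all 12 stood higher in both lane 1 libraries and 11 were lowest in library 1, while of the 10 entries numbered 1 to 6, 6 stood lower in both lane 1 libraries and 2 higher. Of the 3 entries numbered 7 or 8, 1 stood higher and none lower, with a median lane difference of 0.17 on the log2 scale, where that of hoxb7-a and Hoxb8 was 0.87. These bands were drawn after the values were seen. Hoxc10, for instance, had 10.3, 109, 240.4 and 188 CPM in spinal cord libraries 1 to 4, and Hoxc5 had 189, 83.1, 1.45 and 15.7 CPM.

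Genes outside the HOX family also differed between the spinal cords. Of all transcripts tested, 15.8% were higher in both lane 1 libraries than in both lane 2 libraries, and 17.2% lower. The summed sarcomere and other muscle genes were 1658, 1819, 236 and 61.9 CPM in spinal cord libraries 1 to 4, where CKM alone averaged 699 CPM. CHAT, the acetylcholine-producing enzyme of motor neurons, had 14.0, 3.88, 5.23 and 2.27 CPM in them and did not split by lane. The 9 entries for spinal motor neuron and interneuron markers, CHAT included, summed to 88.0, 67.2, 66.8 and 54.6 CPM. The stretch of cord that each sample held is not stated, and the part of any of these in the HOXB values was not tested.

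Leg muscle library 3 stood apart in HOXB2, at 9.33 CPM against 0.989 to 1.56 CPM in the other leg muscles, and in HOXB4, at 4.39 against 0.0423 to 0.837 CPM. It was also the highest leg muscle in hoxb3a, at 2.19 CPM against 0.572 to 1.52 CPM. In HOXB6, hoxb7-a and Hoxb9 it lay within or at the edge of the others. A list of 14 genes of skin epithelium and pigment cells was drawn up after the counts were seen. Of these genes 8 were found, some with several entries. The 15 entries summed to 679 CPM in this library and 52.3 to 168 CPM in the other leg muscles. Of the 13 entries with reads in leg muscle, 10 were highest in library 3, as were 19% of the 13593 tested transcripts with reads in leg muscle. Those not highest in it were the pigment cell genes DCT and some of the entries for TYR. PMEL, a melanosome protein, had 78.3 CPM in it and 3.73 to 9.35 CPM in the others. The summed neuronal markers were 1.22 CPM in this library, the lowest of the 5. The 9 entries for spinal motor neuron and interneuron markers summed to 3.78 CPM in it, against 0.572 to 1.45 CPM in the other leg muscles. The 5 entries for hindbrain markers summed to 2.62 CPM, against 0 to 0.989 CPM. In library 3, 6 of these 9 entries and 4 of these 5 had no read. Slc5a7 alone held 3.41 CPM of the first of these sums there, and en1-b held the whole of the second. The part of these markers in the HOXB2 and HOXB4 values was not tested.

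The 7 members had gene ID numbers in an unbroken run from 005263 to 005270 but for 1 number, and whether the numbers follow the order along a contig is not stated. The number left lies between HOXB4 and HOXB6 and belongs to a transcript of unknown function, singled out for its place after its values were seen. It had 37.4, 39.6, 5.32 and 7.38 CPM in spinal cord, against 0.0761, 0.191, 0.244, 0.127 and 0.463 CPM in leg muscle and 0.0607 and 0.0560 CPM in brain. The spinal cords stood above all other libraries and split by lane, with a lane difference of -2.60 on the log2 scale. It was the only 1 of the 22 tested transcripts with ID numbers within 10 of a HOXB member that was called in spinal cord over brain (Log2FC 8.47, adjusted p 0.0057, edgeR). The next number above the run, calcoco2, a gene near the HOXB cluster in humans, averaged 12.2 CPM in spinal cord, 106 CPM in leg muscle and 1.95 CPM in brain and was called lower in spinal cord than in leg muscle (Log2FC -3.12, adjusted p 0.000379, edgeR).

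Among the other genes beside the human HOXB cluster, 4 entries were tested with calcoco2 included. None was called in spinal cord over brain (median Log2FC 0.62), 2 were called lower in spinal cord than in leg muscle (calcoco2 and NFE2L1), and 3 were called higher in leg muscle than in brain. Of all transcripts tested, 0.84% were called higher and 1.19% lower in spinal cord than in brain. In spinal cord against leg muscle 29.9% were called higher and 25.7% lower, and in leg muscle against brain 21.9% and 28.7%. The counts of the lists below stand beside these same shares. The 22 nearby transcripts had median Log2FC of -0.20, 0.24 and 0.04 in spinal cord over brain, spinal cord over leg muscle and leg muscle over brain.

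HOX proteins bind DNA with partner proteins of the PBX, MEIS and PKNOX families. Of 5 such genes tested, none was called in spinal cord over brain (median Log2FC -0.07), 4 were higher and 1 lower in spinal cord than in leg muscle (median 1.19), and 1 was higher and 3 lower in leg muscle than in brain (median -1.89). MEIS2 averaged 66.4 CPM in spinal cord, 3.38 CPM in leg muscle and 112 CPM in brain. MEIS1 averaged 52.6, 4.36 and 20.8 CPM in these tissues. The gene lower in spinal cord than in leg muscle, named after its values were seen, was pbx2, at 4.82 CPM against 17.1 CPM (Log2FC -1.83, adjusted p 0.000883, edgeR).

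Of the genes that set HOXB domains in embryos, such as those that make, break down or sense retinoic acid, 7 entries were tested. None was called in spinal cord over brain (median Log2FC 0.22), 2 were higher in spinal cord than in leg muscle and 2 lower in leg muscle than in brain, namely CYP26C1, which breaks down retinoic acid, and GDF11, a signal of the posterior body. CYP26C1 averaged 43.8 CPM in spinal cord, 0.270 CPM in leg muscle and 84.4 CPM in brain, and GDF11 8.21, 1.19 and 3.49 CPM. The 4 entries annotated cdx1, named for a factor that switches on HOX genes in the trunk and singled out after their values were seen, had 1 read over all libraries and were not tested.

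Polycomb proteins keep HOX genes silent and Trithorax proteins keep them active. None of the 14 Polycomb and 10 Trithorax entries tested was called in spinal cord over brain (median Log2FC -0.50 and -0.37). In spinal cord over leg muscle 6 Polycomb entries were higher and 2 lower, and 4 Trithorax entries were higher. In leg muscle over brain 1 Polycomb entry was higher and 7 lower, and 6 Trithorax entries were lower. Of all transcripts tested, 29.9% were called higher and 25.7% lower in spinal cord than in leg muscle. In leg muscle against brain 21.9% were called higher and 28.7% lower. The Polycomb entries with the lowest p were phc2 (20.9 CPM in spinal cord, 3.62 in leg muscle and 28.2 in brain), PCGF2 (15.8, 2.49 and 22.2 CPM) and Rnf2 (17.1, 2.13 and 27.3 CPM). The other entry of that name, rnf2-a, added after its values were seen, had 31.1, 34.2 and 34.9 CPM and was not called in any comparison. The Trithorax entry with the lowest p was KDM6B, an enzyme that removes the silencing mark (91.1, 16.6 and 52.0 CPM).

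The other HOX clusters were called by the same test as follows. In spinal cord over brain 4 of 7 HOXA, 8 of 9 HOXC and 5 of 9 HOXD entries were higher, in spinal cord over leg muscle 4, 5 and 9, and in leg muscle over brain 5, 7 and 1, with 2 HOXD entries lower. Of all transcripts tested, 0.84%, 29.9% and 21.9% were called higher in these comparisons, and 28.7% lower in leg muscle than in brain. Those higher in spinal cord than in brain were HOXA3, HOXA7, HOXA9 and HOXA11, HOXC4, Hoxc5, hoxc6, HOXC8, Hoxc9, Hoxc10, hoxc11a and Hoxc12, and HOXD4, HOXD9, HOXD10 and both hoxd3 entries.

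The transcripts outside HOXB whose pattern over the 11 libraries was most like the mean HOXB pattern were found by the root mean square (RMS) difference of centred log2 CPM. They were 3 transcripts annotated Pkd1l2, a member of the polycystin family, at 0.87, 1.03 and 1.04 log2 units, Mnx1, a homeobox gene of spinal motor neurons, at 0.89, and HOXD4 at 1.04. Mnx1 averaged 4.23 ± 1.64 CPM in spinal cord (SD, n = 4), 0.0337 ± 0.0753 CPM in leg muscle (n = 5) and 0 in brain (n = 2). Taken singly, hoxb3a and Hoxb9 were nearest to a Pkd1l2 transcript (0.67 and 0.94), HOXB4 to cftr (1.29), HOXB6 to HOXA7 (0.72), hoxb7-a to HOXC8 (1.04) and Hoxb8 to another Pkd1l2 transcript (0.77). Within the cluster the nearest pair was hoxb7-a and Hoxb9, at 0.86, and the farthest HOXB2 and Hoxb8, at 2.66.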

How the data were processed

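The deposited files hold raw counts of reads per transcript, which the authors made by aligning reads to their own genome assembly with STAR 2.7 and counting with htseq-count. The libraries came from a stranded kit, and the strand setting of the count is not given in the sources used here, so antisense reads cannot be told apart. Reads outside any feature were 66.4 to 69.7% in spinal cord, 49.4 to 52.3% in leg muscle and 66.7 to 70.0% in brain, and were left out of library sizes.

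Counts were analysed in R 4.3.3 with edgeR 4.0.16, as in the study's methods: filterByExpr (minimum count 10, minimum total 15), TMM, 1 coefficient per tissue and the quasi-likelihood test on 11 libraries, with Benjamini-Hochberg adjustment over 13923 transcripts and a threshold of 0.05. TMM factors were 1.68 to 2.03 in spinal cord, 0.389 to 0.752 in leg muscle and 1.57 to 2.09 in brain. Log2 CPM used a prior count of 2. SE is the Log2FC divided by the square root of F. A count of 0 was read as up to 3 reads over the tissue, and intervals are exact (95%) and cover counting error only. The script was tested on simulated data.

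No libraries were alike within sampling noise (chi-square per degree of freedom at least 65.3). The replicate numbers were not taken to pair samples. Same-numbered libraries deviated together with r from -0.05 to 0.22, over 0.1 in 5 of 8 pairs.

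All HOXB members are named, and of each related list those called in spinal cord over brain or otherwise up to 3 with the lowest p. The transcript nearest to HOXB2 in pattern is not reported here. The members, lists and rules were chosen with earlier results of these data known. Alternatives were DESeq2 1.42.0, limma-voom (limma 3.58.1), other scalings and filters, a replicate block, lane 1 alone and each library left out.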

Additional observations from a re-analysis of the deposited data

Results flagged for a closer look

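Each of the 18 groups examined was a gene, the sum of the HOXB genes or the share of HOXB2, hoxb3a and HOXB4 in 1 tissue. In 4 of the 18 groups, 1 library stood far from the rest, judged by its gap to the next value over the range. Chance gives about 1 in 20 for independent groups of normally distributed values. These groups are not independent, since the sum holds the HOXB2 and HOXB4 values. CPM from few reads need not be normally distributed, so the rate by chance here is not known. In leg muscle the library far from the rest was library 3 each time. HOXB2 was at 9.33 CPM there, HOXB4 at 4.39 CPM and the sum of the HOXB genes at 18.8 CPM. In spinal cord, library 1 held the lowest hoxb3a level, 87.2 CPM, while the other 3 lay close together. No cause was tested.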

How the results depend on the processing

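Over 23 alternatives, 4 to 7 members were higher in spinal cord than in brain, 6 or 7 in spinal cord than in leg muscle and 2 to 4 in leg muscle than in brain. The count of 4 came from a filter of at least 10 counts in 5 libraries, which left out Hoxb8. HOXB2 and HOXB4 over brain passed with only the tissues compared (adjusted p 0.00139 and 0.00189), with DESeq2 (0.00737 and 4.0e-05) and with limma-voom (0.00269 and 0.0182), and HOXB4 also with edgeR's newer dispersion method (0.0481). In leg muscle over brain, Hoxb9 was lost with limma-voom (adjusted p 0.232) and was filtered out with only these tissues fitted, which left 2 members called, and HOXB4 passed with DESeq2 (0.0173). Without leg muscle library 3, HOXB2 and hoxb3a were called lower in leg muscle than in brain, with Log2FC of -1.79 and -1.18 (adjusted p 0.000275 and 0.02). The sign of Hoxb8 in leg muscle over brain turned without brain library 1, to 0.22, on 3 leg muscle reads and 1 brain read, and ranged from -1.70 to 0.22 with 1 library left out. The causes of these changes were not tested.

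Scaling by library totals alone moved the median Log2FC of all transcripts by 1.85 in spinal cord over leg muscle and by -1.86 in leg muscle over brain. Under it HOXB2 and hoxb3a were lower in leg muscle than in brain, with Log2FC of -2.43 and -2.76, and Hoxb9 was lost (0.99, adjusted p 0.341). The calls over all transcripts higher in leg muscle than in brain then numbered 930, against 3054 with TMM.

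With the replicate number as a block, 5, 7 and 3 members were called in spinal cord over brain, spinal cord over leg muscle and leg muscle over brain, and 71, 3963 and 2834 of all transcripts were called higher, against 117, 4160 and 3054 without the block. The median spinal cord share of HOXB2, hoxb3a and HOXB4 was 39.3%, with 36.7 to 42.0% when 1 spinal cord was left out and 34.8% within lane 1. With 2 brains and at most 4 brain reads each for Hoxb8, Hoxb9 and hoxb7-a, depth limits how far their differences from brain can be sized.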
